A study of Arabidopsis thaliana with 6 samples.

Results

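The nuclear genes of the photosystem cores and of photosynthetic electron transport were followed in dark-grown Arabidopsis thaliana seedlings. They numbered 33 of the 24487 genes in the deposited expression table and were picked by locus identifier. The set held 13 genes of photosystem I, 10 of photosystem II, 7 of electron carriers and their enzymes, and 3 of the chloroplast ATP synthase. The genes of the light-harvesting antennae were left out. All 33 passed the filter on low values, so every one of them was tested.

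Whole seedlings were sampled after 4 days of uninterrupted darkness at 22 °C, following a dark period in the cold on agar medium. RNA was sequenced from 3 libraries labelled atino80-6 and from 3 labelled wild type. The line atino80-6 is named after INO80, the ATPase of a chromatin remodelling complex, and all the seedlings of both groups were of the same age and raised without light. The labels give neither the kind of allele, nor the accession of the plants, nor whether the replicates were separate cultures. The p-values therefore measure only the spread between these libraries, which may be technical.

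In green plants, photosystem II takes electrons from water, and the cytochrome b6f complex and the mobile protein plastocyanin pass them to photosystem I. From there ferredoxin and ferredoxin-NADP reductase carry them to NADPH, while the ATP synthase uses the proton gradient that builds up. The complexes are mosaics: chloroplast DNA encodes the reaction centre proteins, and nuclear genes encode most of the peripheral, lumenal and stromal subunits described here. In angiosperms, seedlings kept in darkness form etioplasts without functional photosystems, and transcripts of nuclear photosynthesis genes are well known to be low there and to climb after illumination.

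Of the libraries, the one labelled atino80-6 replicate 3 and wild type replicate 1 stood apart from the others of their groups. Read counts were compared between replicates by chi-square, divided by its degrees of freedom. The value was 23.8 and 21.8 for atino80-6 3 against the other 2, but 8.32 between atino80-6 1 and 2. Likewise it was 21.6 and 21.3 for wild type 1 against the other 2, but 5.98 between wild type 2 and 3. The libraries held 18446028 to 24156610 reads. INO80 (AT3G57300) stood at 158, 185 and 187 FPKM in the libraries labelled atino80-6, against 31.4, 34.7 and 32.3 FPKM in wild type. Its transcript was thus 5.40-fold higher under the mutant label (log2 change 2.43 ± 0.10, limma adjusted p = 2.8e-06), so each direction below rests on the labels as deposited. FPKM, the authors' unit, counts fragments relative to gene length and sequencing depth, which allows levels of genes of different length to be set side by side. Of the marker genes checked for root, epidermis, lateral organs and seed, none was at 0 in all 6 libraries.

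All 33 genes rose in the libraries labelled atino80-6 and 0 fell, where 17.7% of the 20222 genes tested rose and 34.2% changed in either direction. Rises and falls are changes with a limma adjusted p under 0.05, adjusted across all tested genes. The log2 changes ran from 0.86 for PSAE2 to 3.51 for PSBO2, with a median of 1.86, beside a median of 0.00 over all tested genes. Their standard errors lay between 0.08 and 0.16 (n = 3 libraries per group), and the highest adjusted p was 0.001. The fitted rise was 2-fold or more in 32 of the genes, against 6.68% of the tested genes, and 4-fold or more in 10, against 2.28%. In all 33 the lowest library labelled atino80-6 was above the highest wild type library, a separation seen in 24.1% of tested genes, and in either direction in 48.3%. That gap was narrowest for PSAE2, at 1.43-fold, and widest for PSBO2, at 8.62-fold. In the authors' deposited table all 33 were higher as well, where 16.1% of genes with an adjusted p were, and its log2 values differed from those here by at most 0.025.

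Because whole seedlings were sampled, more cells of a type and more RNA per cell cannot be told apart. Leaving out atino80-6 replicate 3 and wild type replicate 1 together left all 33 genes higher, with a median log2 change of 1.98.

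**Figure D1:**
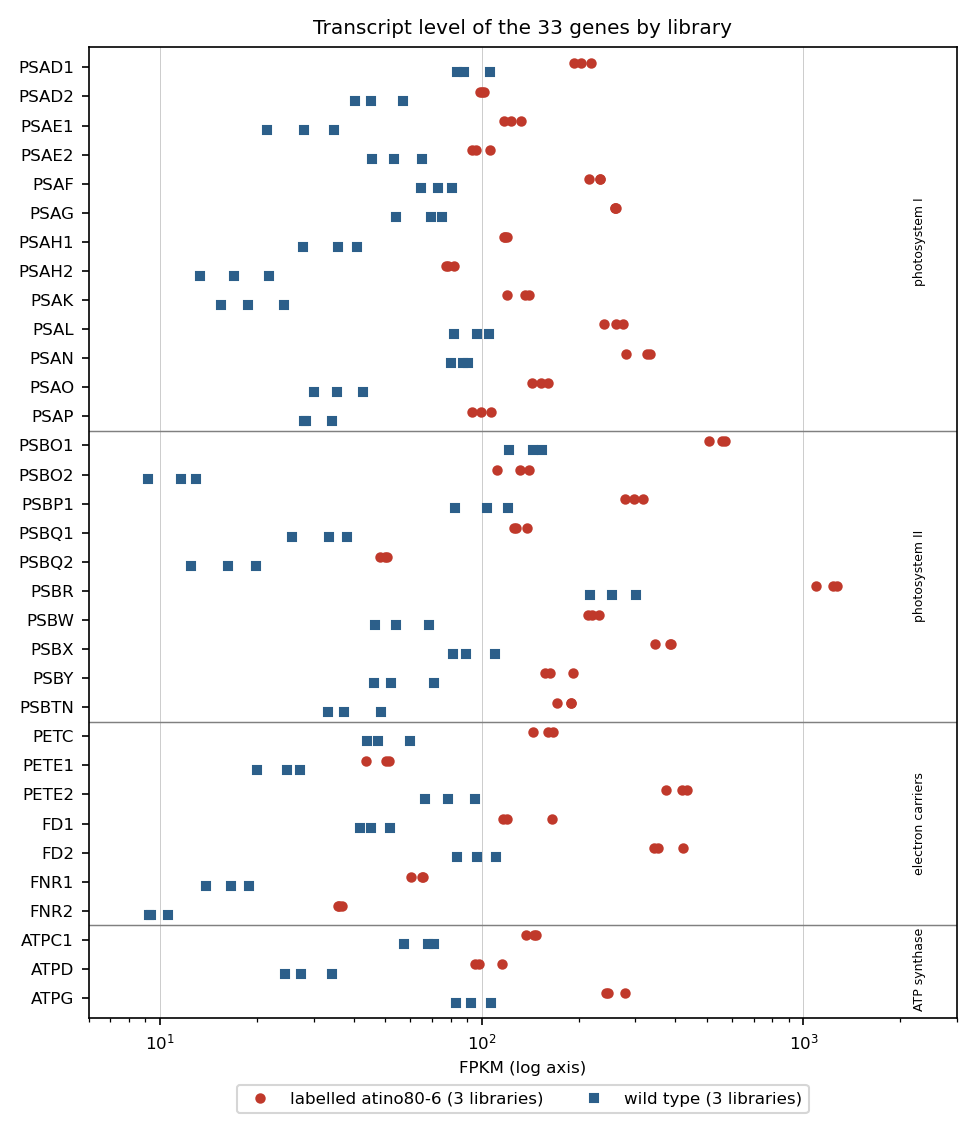
Level of each of the 33 genes in each library, in FPKM on a log axis, with circles for the 3 libraries labelled atino80-6 and squares for the 3 wild type libraries. In every row the circles lie to the right of the squares; PSBR is highest in both groups and FNR2 lowest in the means of both.

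Together the genes took 0.801%, 0.818% and 0.740% of all reads in the libraries labelled atino80-6, against 0.271%, 0.221% and 0.192% in wild type. The 95% Wilson intervals of these shares were at most 0.0081 percentage points wide and cover counting error only. The mean share was 0.786% ± 0.041 in the libraries labelled atino80-6 and 0.228% ± 0.040 in wild type (SD, n = 3 each), a ratio of 3.45. An exact two-sided permutation test of 3 libraries against 3 gave p = 0.1, the smallest p it allows. By class, the ratio was 3.89 for photosystem II, 3.62 for the carriers, 3.08 for photosystem I and 2.51 for the ATP synthase. Without PSBR, which had the most reads, the mean share was 0.669% in the libraries labelled atino80-6 and 0.202% in wild type.

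The genes also moved up the order of transcript abundance. Ranked by mean FPKM among all 24487 genes, their median rank was 477 in the libraries labelled atino80-6 and 1755 in wild type. The 500 most abundant transcripts included 17 of the 33 genes in the libraries labelled atino80-6 and 2 of them, PSBR and PSBO1, in wild type. PSBR ranked 33rd under the mutant label and 211th in wild type. Their order among themselves was largely kept: across the 33 genes the log2 FPKM of the groups correlated at Pearson r = 0.89 and Spearman rho = 0.89, values that share each gene's length and sequence. The log2 change correlated weakly with the wild type log2 FPKM (r = -0.30, rho = -0.19), a relation whose axes share the wild type values.

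**Figure D2:**
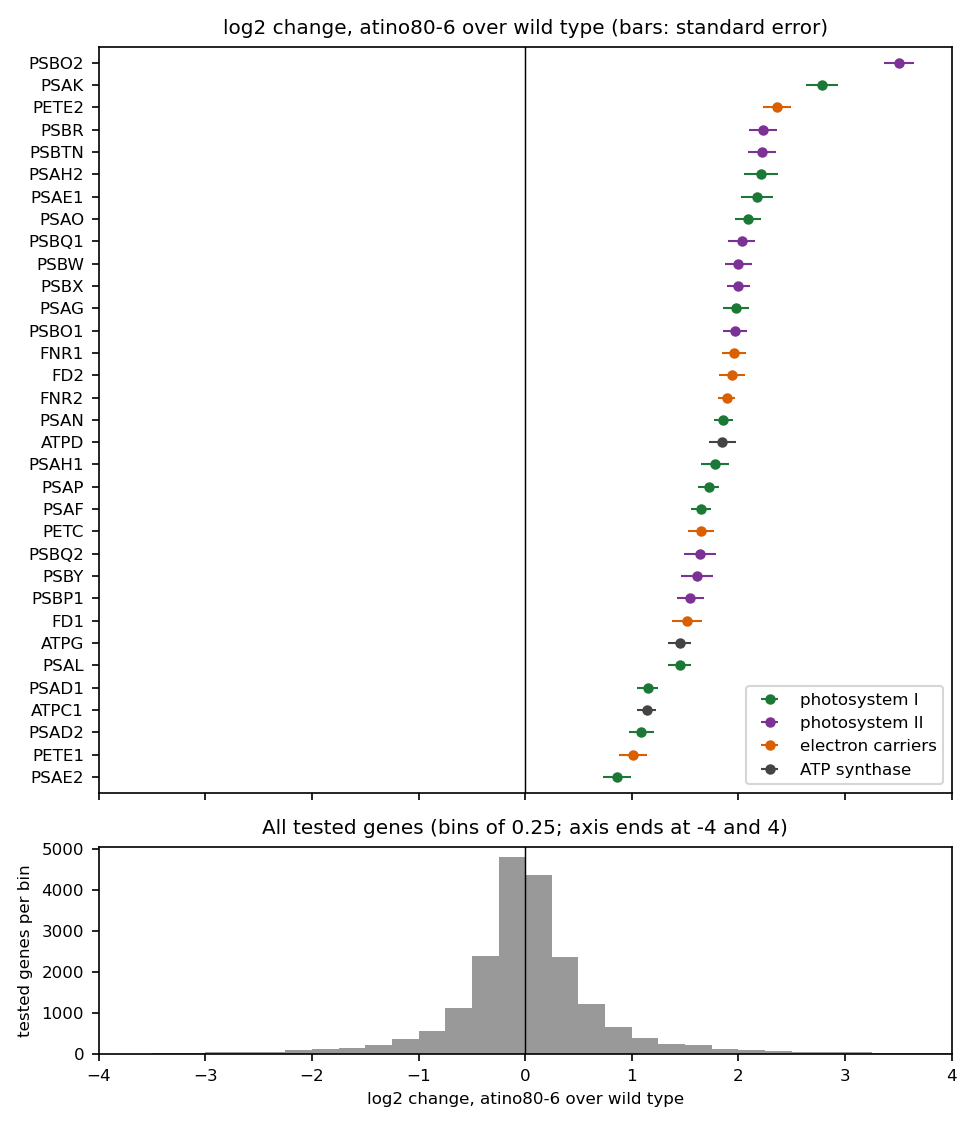
Upper panel, fitted log2 change of each gene in the libraries labelled atino80-6 over wild type with its standard error (3 libraries per group), coloured by complex. Lower panel, number of the 20222 tested genes per bin of 0.25 on the same axis; the genes of the upper panel run from 0.86 to 3.51, whereas the bulk of tested genes centres on 0.

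The water-splitting side of photosystem II held the gene with the largest change. PSBO proteins stabilise the manganese cluster that oxidises water, and Arabidopsis has a pair of genes for them. PSBO2 (AT3G50820) had 140, 131 and 112 FPKM in the libraries labelled atino80-6, against 12.95, 11.7 and 9.14 FPKM in wild type. The groups were far apart, and the ratio of the means was 11.4 (log2 change 3.51 ± 0.14, limma adjusted p = 1.9e-06). PSBO1 (AT5G66570), the more abundant copy, had 569, 560 and 509 FPKM in the libraries labelled atino80-6, against 154, 145 and 122 FPKM in wild type. Its ratio was 3.90 (log2 change 1.97 ± 0.11, adjusted p = 7.4e-06).

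PSBP1 (AT1G06680), a lumenal protein that helps to retain calcium and chloride at the water-splitting site, rose less than PSBO2. It had 297, 316 and 280 FPKM in the libraries labelled atino80-6, against 121, 104 and 82.5 FPKM in wild type, 2.91-fold higher. PSBQ1 (AT4G21280) and PSBQ2 (AT4G05180), whose proteins bind beside PSBP, rose 4.03-fold and 3.06-fold. PSBR (AT1G79040), a small protein needed for stable binding of PSBP, was the most abundant transcript of the 33 genes in every library. It stood at 1269, 1233 and 1096 FPKM in the libraries labelled atino80-6, against 302, 255 and 216 FPKM in wild type. The rise was 4.65-fold (log2 change 2.23 ± 0.13, adjusted p = 9.4e-06).

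The remaining photosystem II genes encode small membrane or lumenal subunits. PSBW (AT2G30570), whose protein links the core to the antenna supercomplex, rose 3.94-fold, PSBX (AT2G06520) 3.98-fold, PSBTN (AT3G21055) 4.62-fold and PSBY (AT1G67740) 3.02-fold. PSBTN held 190.0, 189 and 171 FPKM in the libraries labelled atino80-6, against 48.5, 37.4 and 33.3 FPKM in wild type. PSBY varied more, with 157, 192 and 162 FPKM in the libraries labelled atino80-6, against 70.8, 52.1 and 46.4 FPKM in wild type. The largest adjusted p among the 10 photosystem II genes was 0.0001.

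Among photosystem I genes PSAK (AT1G30380), a membrane subunit on the antenna side of the complex, rose most. It had 140, 120 and 137 FPKM in the libraries labelled atino80-6, against 24.2, 18.8 and 15.5 FPKM in wild type, 6.79-fold higher (log2 change 2.78 ± 0.15, limma adjusted p = 7.3e-06). PSAG (AT1G55670), a related antenna-side subunit, was nearly constant within the libraries labelled atino80-6, at 260.7, 260.1 and 260.0 FPKM. Wild type held 75.2, 69.7 and 54.2 FPKM, and PSAG was 3.92-fold higher under the mutant label. PSAO (AT1G08380) and PSAL (AT4G12800) lie on the side where mobile antenna docks during state transitions. PSAO rose 4.23-fold and PSAL 2.73-fold. PSAH, which lies on that same side, is encoded by PSAH1 (AT3G16140) and PSAH2 (AT1G52230), which rose 3.40-fold and 4.55-fold. PSAH2 had 82.2, 78.3 and 77.3 FPKM in the libraries labelled atino80-6, against 21.9, 17.0 and 13.3 FPKM in wild type.

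On the lumenal side, PSAF (AT1G31330) docks plastocyanin and PSAN (AT5G64040) aids that step. PSAF had 234, 234 and 216 FPKM in the libraries labelled atino80-6, against 80.9, 73.4 and 64.6 FPKM in wild type, a 3.12-fold difference. PSAN had 334, 325 and 281 FPKM in the libraries labelled atino80-6, against 90.7, 87.7 and 80.0 FPKM in wild type, a 3.64-fold difference. The transcript listed as PSAP (AT2G46820) encodes a thylakoid protein now also named CURT1B, which bends grana margins. It rose 3.30-fold.

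PSAD and PSAE form part of the stromal ridge, where ferredoxin binds. Of the 13 photosystem I genes, PSAE2, PSAD2 and PSAD1 had the smallest log2 changes. PSAD1 (AT4G02770) had 194, 218 and 203 FPKM in the libraries labelled atino80-6, against 106, 88.0 and 83.7 FPKM in wild type, 2.21-fold higher. PSAD2 (AT1G03130) was 2.11-fold higher, with mean levels of 100.2 ± 1.32 FPKM in the libraries labelled atino80-6 and 47.5 ± 8.49 FPKM in wild type (SD, n = 3 each). PSAE2 (AT2G20260) was the only one of the 33 under a 2-fold fitted change. Its levels were 96.0, 106 and 93.0 FPKM in the libraries labelled atino80-6, against 65.0, 53.4 and 45.5 FPKM in wild type, a ratio of 1.80 (log2 change 0.86 ± 0.13, adjusted p = 0.001). The groups still did not overlap. Its partner copy PSAE1 (AT4G28750) had 133, 124 and 117 FPKM in the libraries labelled atino80-6, against 34.7, 28.0 and 21.5 FPKM in wild type, 4.44-fold higher.

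Levels of the photosystem I subunits lay closer together in the libraries labelled atino80-6. Levels were summed over the copies of PSAD, PSAE and PSAH, whose products fill the same place in the complex, which left 9 subunits with PSAP set aside; this grouping was chosen after the values were seen. The SD of log2 FPKM across the 9 was 0.41, 0.49 and 0.38 in the libraries labelled atino80-6, against 0.80, 0.85 and 0.89 in wild type. The highest subunit exceeded the lowest 2.39-fold, 2.71-fold and 2.22-fold in the libraries labelled atino80-6, against 6.74-fold, 7.10-fold and 8.03-fold in wild type. PSAK was the lowest of the 9 by mean in both groups, at 132 FPKM in the libraries labelled atino80-6 and 19.5 FPKM in wild type. Without PSAK the SDs were 0.33, 0.38 and 0.32 in the libraries labelled atino80-6, against 0.57, 0.58 and 0.63 in wild type. PSAD, the most abundant in wild type, rose least of the 9 sums (2.18-fold). Setting PSAP aside affected the groups differently. It had 99.16, 106.5 and 93.28 FPKM in the libraries labelled atino80-6, under PSAK in each. In wild type it had 34.33, 28.38 and 27.95 FPKM, above PSAK in each. With PSAP the range would thus be wider in the libraries labelled atino80-6 and unchanged in wild type. Across all 13 genes taken singly, PSAP included, the mean SD was 0.65 in the libraries labelled atino80-6 and 0.84 in wild type. The photosystem II genes had the same order, with 1.27 in the libraries labelled atino80-6 and 1.39 in wild type. Across all 33 genes it was 1.06 and 1.10. Among the carriers the order was the other way round, 1.39 in the libraries labelled atino80-6 and 1.22 in wild type. These spreads are descriptions without a test.

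**Figure D3:**
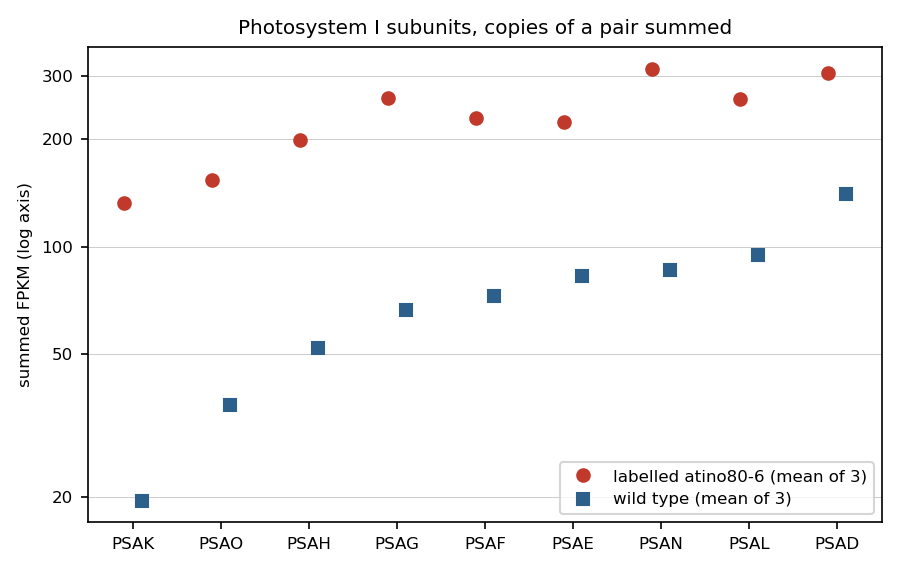
Mean summed FPKM (log axis) of 9 photosystem I subunits, in the 3 libraries labelled atino80-6 (circles) and 3 wild type libraries (squares), with the copies of PSAD, PSAE and PSAH added and PSAP left out. The circles range from 132 for PSAK to 314 for PSAN, while the squares range from 19.5 for PSAK to 140 for PSAD.

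The electron carriers rose in all 7 genes. PETC (AT4G03280), the Rieske iron-sulfur protein of cytochrome b6f, had 161, 166 and 145 FPKM in the libraries labelled atino80-6, against 59.8, 47.6 and 44.1 FPKM in wild type, 3.11-fold higher. PETE2 (AT1G20340), the major plastocyanin gene, had 419, 434 and 374 FPKM in the libraries labelled atino80-6, against 95.5, 78.7 and 66.5 FPKM in wild type. It rose 5.10-fold (log2 change 2.36 ± 0.13, limma adjusted p = 7.4e-06). PETE1 (AT1G76100), the minor copy, had 43.5, 51.3 and 50.4 FPKM in the libraries labelled atino80-6, against 27.3, 24.9 and 20.0 FPKM in wild type. It rose 2.01-fold (log2 change 1.01 ± 0.13, adjusted p = 0.00048).

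Both leaf ferredoxin genes rose. FD2 (AT1G60950), the predominant one in leaves, had 353, 422 and 342 FPKM in the libraries labelled atino80-6, against 110.5, 96.7 and 83.9 FPKM in wild type, 3.84-fold higher. FD1 (AT1G10960) had 119, 165 and 117 FPKM in the libraries labelled atino80-6, against 51.7, 41.9 and 45.3 FPKM in wild type, 2.89-fold higher. Replicate 2 of atino80-6 was the highest of its group for both. The ferredoxin-NADP reductase genes FNR1 (AT5G66190) and FNR2 (AT1G20020), whose products make NADPH, rose 3.87-fold and 3.72-fold. FNR2 was the least abundant of the 33 by mean in both groups, with 36.8, 35.8 and 36.0 FPKM in the libraries labelled atino80-6, against 10.6, 9.24 and 9.36 FPKM in wild type.

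The nuclear ATP synthase genes gave a lower median log2 change (1.45) than the 3 other classes, which stood at 2.00 for photosystem II, 1.89 for the carriers and 1.78 for photosystem I. ATPC1 (AT4G04640), the gamma subunit that carries the redox switch of the enzyme, had 146, 148 and 137 FPKM in the libraries labelled atino80-6, against 70.9, 68.0 and 57.2 FPKM in wild type, 2.19-fold higher. ATPD (AT4G09650), the delta subunit, rose 3.58-fold, and ATPG (AT4G32260), a membrane stalk subunit, 2.72-fold. The difference between classes was not tested, and the ranges of the classes overlapped.

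Where a protein is encoded by a pair of genes, the copies often rose unequally. The difference in log2 change between copies was compared over libraries in 8 pairs, by exact two-sided permutation of the log2 ratio of the copies, in which 3 libraries against 3 cannot go below p = 0.1. The ratios of the groups did not overlap in 6 pairs, each with an exact permutation p = 0.1, or 0.133 when adjusted over the 8 pairs. Levels of single genes did not overlap, in either direction, for 48.3% of all tested genes. How often the ratio of other gene pairs separates the groups was not computed, so the count does not set these pairs apart. How the authors' counting treated reads shared by similar copies is not given in the sources used here, so the split between copies is uncertain. Nor do the labels state whether the reads keep their strand, so antisense transcripts cannot be told apart.

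In the PSBO pair, PSBO2 rose more than PSBO1 by 1.54 ± 0.07 on the log2 scale (SE). The minor copy PSBO2 made up 19.8%, 19.0% and 18.0% of the pair's FPKM in the libraries labelled atino80-6, against 7.75%, 7.47% and 7.0% in wild type. The plastocyanin pair differed by 1.35 ± 0.12, and the major copy PETE2 supplied 89.4% ± 1.2 of the FPKM in the libraries labelled atino80-6 and 76.8% ± 0.89 in wild type (SD, n = 3 each). In the PSAE pair the copies changed places. PSAE2 supplied 42.0%, 46.3% and 44.2% of the FPKM in the libraries labelled atino80-6, against 65.2%, 65.6% and 67.9% in wild type, and the difference in change was 1.31 ± 0.09.

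Smaller shifts were seen in the PSAH pair (0.43 ± 0.06), the ferredoxin pair (0.43 ± 0.12) and the PSBQ pair (0.39 ± 0.06), toward PSAH2, FD2 and PSBQ1. In the PSAD pair the difference was 0.06 ± 0.06 (exact permutation p = 0.4) and in the FNR pair 0.07 ± 0.10 (exact permutation p = 0.7). PSAD2 supplied 32.9% ± 1.0 of the pair's FPKM in the libraries labelled atino80-6 and 33.8% ± 1.2 in wild type (SD, n = 3 each). FNR2 supplied 36.2% ± 1.1 in the libraries labelled atino80-6 and 37.3% ± 2.5 in wild type. The major copy was thus the faster riser for plastocyanin, ferredoxin and PSBQ, and the minor wild type copy for PSBO, PSAE and PSAH.

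**Figure D4:**
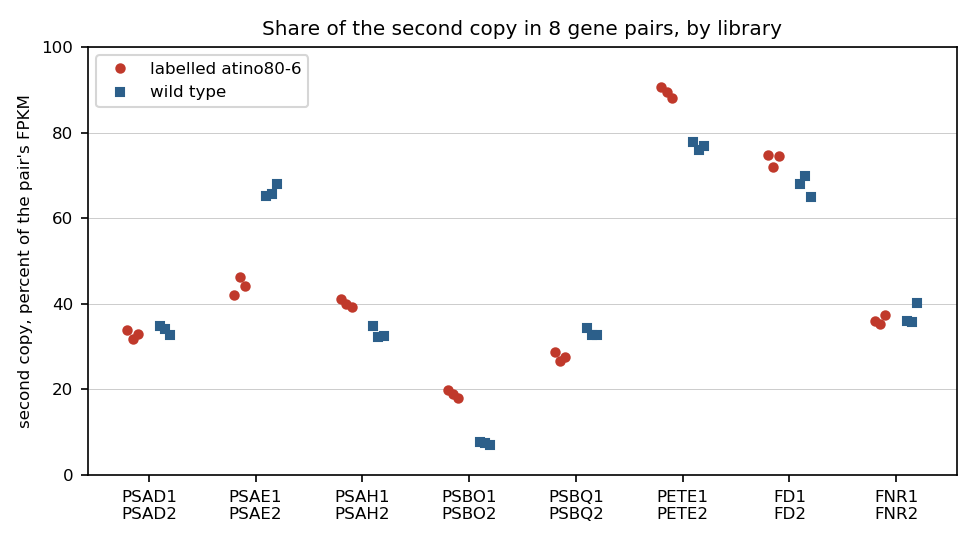
Share of the second-named copy in the pair's summed FPKM, in percent, for 8 gene pairs, with circles for the 3 libraries labelled atino80-6 and squares for the 3 wild type libraries. Circles and squares are apart in 6 pairs, most widely in PSAE (44.2% and 66.2% on average), and overlap in PSAD and FNR.

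The 33 genes also varied together inside the wild type group. Wild type 1 was the highest of the wild type libraries for 33 of 33 genes, which held for 41.4% of all tested genes, and wild type 3 was the lowest for 31 of 33, beside 31.2%. The ratio of wild type 1 to wild type 3 had a median of 1.40 and ran from 1.13 for PSAN and FNR2 to 1.64 for PSAH2. Within the libraries labelled atino80-6, the highest exceeded the lowest by a median of 1.13-fold. There atino80-6 3 was the lowest for 22 of 33 genes, beside 34.5% of all tested genes. Accordingly the coefficient of variation was smaller in the libraries labelled atino80-6 for 31 of 33 genes, with medians of 6.20% there and 16.6% in wild type. Over all tested genes it was smaller in the libraries labelled atino80-6 for 47.2%. The genes rise together in a library, so their calls are not independent of each other.

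**Figure D5:**
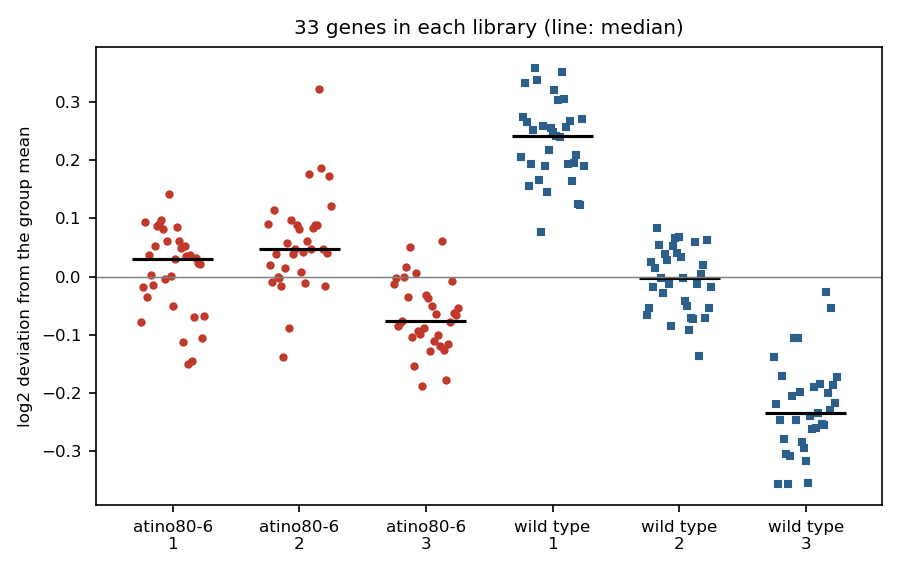
Log2 deviation of each of the 33 genes from the mean of its own group, by library, for the libraries labelled atino80-6 (circles) and wild type (squares), with the median as a line. All points of wild type 1 lie above 0, with a median of 0.242, and the median of wild type 3 is -0.235; medians of the libraries labelled atino80-6 lie between -0.077 and 0.047.

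Seed storage transcripts differed in level between libraries. Of 10 such genes 2 rose (median 1.73), a share near the 17.7% of all tested genes: SESA1, a storage albumin (log2 change 3.97, limma adjusted p = 0.0025), and OLEO2, an oil body protein (1.71, adjusted p = 0.033). SESA1 stood at only 6.12, 4.88 and 0.87 normalized counts in wild type, near the level of 3 reads. Its wild type mean of 3.96 lay under the filter of 10, which it passed only through the libraries labelled atino80-6. The size of its change is therefore uncertain. The summed level of the 10 genes, in normalized counts, was 44550, 66570 and 6894 in the libraries labelled atino80-6, against 19560, 5831 and 22060 in wild type. None of the 10 was at 0 in all libraries. Without atino80-6 3 the list had 6 members called higher, and without it and wild type 1 it had 9. It had 1 without any single one of atino80-6 1, atino80-6 2, wild type 2 or wild type 3. Calls over all 20222 tested genes moved as well. With all libraries 3572 were higher, without atino80-6 3 it was 3867, and without it and wild type 1 it was 4435. The part of the seed genes in the result was not tested.

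Genes of other tissues were examined beside the 34.2% of all tested genes called in either direction. Lists of 4, 3 and 8 genes are too small to be set apart from that share. Of 4 YABBY genes, which mark lateral organs such as cotyledons, 0 rose and 0 fell (median -0.13), and their summed level ran, in normalized counts, between 1530 and 1750 in the libraries labelled atino80-6 and 1639 to 2195 in wild type. Without wild type 3, 1 of the 4 was called lower. Of 3 epidermal genes PDF1 fell (-0.44, limma adjusted p = 0.012), and the list summed to 16860 to 19680 in the libraries labelled atino80-6 and 21530 to 22730 in wild type. Without atino80-6 3, 2 of the 3 epidermal genes were called lower. Of 8 root genes PYK10, a beta-glucosidase of endoplasmic reticulum bodies, rose (0.55, adjusted p = 0.021) and SCR fell (-0.33, adjusted p = 0.0088). The root list, of which PYK10 made up most, summed to 101100 to 113600 in the libraries labelled atino80-6 and 73480 to 78580 in wild type. PYK10 lost its call after quantile normalization (0.02, adjusted p = 0.90) and without any of atino80-6 1, atino80-6 2, wild type 2 or wild type 3 (adjusted p at most 0.09), and 2 root genes were called lower without atino80-6 1 or without wild type 1. The part of these tissues in the result was not tested.

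Transcripts of most factors that build the complexes were higher too. In a list of 28 nuclear assembly and expression factors, 26 rose and 0 fell, where 17.7% of tested genes rose, with a median log2 change of 0.77. PSB28, an assembly factor of photosystem II, rose most, with 17.8, 17.0 and 13.0 FPKM in the libraries labelled atino80-6, against 1.83, 2.34 and 1.62 FPKM in wild type (8.26-fold; 3.02 ± 0.19, limma adjusted p = 1.2e-05). HCF173, needed to translate the reaction centre protein D1, rose 7.96-fold, and LQY1, a zinc finger protein of photosystem II repair, 7.0-fold. The 2 that did not pass were HCF152, which processes chloroplast RNA (log2 change 0.16, adjusted p = 0.33), and ATAB2, a light-linked translation factor (0.32, adjusted p = 0.056).

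Transcripts of other parts of the chain were examined as well. In a list of 14 ferredoxins, reductases, tethers, kinases and phosphatases outside the 33, 11 rose and 1 fell (median 0.79). Of all tested genes 17.7% rose and 16.6% fell. PPL1, a relative of PSBP linked to photosystem II repair, rose 3.89-fold, and TROL and TIC62, which hold ferredoxin-NADP reductase at membranes, rose 3.6-fold and 2.7-fold. FD3, a further ferredoxin gene, was the one that fell (log2 change -0.41, limma adjusted p = 0.005). It had 28.4, 29.7 and 32.0 FPKM in the libraries labelled atino80-6, against 37.8, 42.1 and 39.8 FPKM in wild type. ATPC2, a second gamma subunit gene, stood at -0.07 (adjusted p = 0.71) and CYTC6A, a lumenal cytochrome, at 0.26 (adjusted p = 0.25).

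The plastid partners behaved differently from library to library. A list of 18 chloroplast identifiers for subunits of the same complexes had 17 tested members, of which 3 rose and 0 fell (median 0.75). That share is near the 17.7% of all tested genes that rose, so the count does not set the list apart. The 3 were ATCG00120, listed as atpA (log2 change 1.21, limma adjusted p = 0.011), ATCG00470, atpE (1.18, adjusted p = 0.0042), and ATCG00480, atpB (0.92, adjusted p = 0.0075). All 3 are ATP synthase genes, and the list's other genes of that enzyme, atpF, atpH and atpI, were not called. The list had 3 members called higher in every alternative fit as well. The summed level, in normalized counts, was 1315, 1233 and 4842 in the libraries labelled atino80-6, against 1247, 1243 and 799 in wild type, and 16 of the 18 were highest in atino80-6 3. Without that library the list's median was 0.14, with 3 members called higher and 1 lower. The labels do not say whether the kit selected polyadenylated RNA, which would bear on how plastid transcripts are captured.

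For the nuclear subunits of the mitochondrial respiratory chain, 9 of 20 rose and 0 fell, where 17.7% of all tested genes rose. Their median log2 change was 0.28. Without atino80-6 2 the count was 6, and without atino80-6 3 it was 13. Over all tested genes those fits called 2549 and 3867 higher, against 3572 with all libraries. The largest change in the list was that of AT5G25450 (1.09, limma adjusted p = 0.0033), followed by CYTC-2, a cytochrome c gene (0.85, adjusted p = 0.00087), and AT5G40810, of the cytochrome c1 family in RefSeq (0.44, adjusted p = 0.0036). Of the 33 photosynthetic genes, PSAE2, PETE1 and PSAD2 had log2 changes of up to 1.09, and the others were above it. The difference between the lists was not tested.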

How the data were processed

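Per the submitters' processing notes, the authors used HISAT2, SAMtools, featureCounts and DESeq2, besides FastQC, cutadapt and deepTools, with the build TAIR10; versions, annotation, strandedness and the treatment of multimapping reads are not given in the sources used here. The authors deposited FPKM values per library, scaled between libraries by size factors. The authors' deposited comparison table holds, per the file headers, a mean signal (normalized counts over the libraries), log2 fold changes with errors, a score (change over error), and p-values with adjusted p-values.

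Plain normalized values had been assumed; the table held FPKM. Each FPKM value was multiplied by the gene's mean normalized count over its mean FPKM, which gave normalized counts, and undoing the size factors gave values within 0.01 of a whole read in 146922 of 146922 cases. Folds are ratios of group means and are the same in FPKM and in normalized counts. Totals were 18446028 to 24156610 reads per library, and 3 reads in a library equal 2.62 to 3.50 normalized counts.

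The 20222 genes whose mean normalized count was 10 or more were tested with limma 3.58.1 in R 4.3.3 on log2(normalized count + 1), with genotype as the only term, a trend on abundance and Benjamini-Hochberg adjustment over all of them. The fit was run on simulated counts with planted folds, which checked only that it returned their median log2 size. Those counts had the same dispersion for every gene and independent libraries, unlike the data, so they do not bear on the calls here. Count models were not run; limma voom on the rebuilt reads served as an alternative. Pair ratios and read shares were compared by exact permutation over libraries. Tables were made in Python 3.11.15 with pandas 2.3.3, numpy 2.4.6 and scipy 1.17.1, figures with matplotlib 3.10.9.

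The members, lists and alternatives were chosen with earlier results of these data known. Named were all 33 genes, INO80 and, from each list, up to 3 called members in each direction with the largest change; HCF152, ATAB2, ATPC2 and CYTC6A were added after their values were seen. All 33 identifiers matched RefSeq TAIR10.1, which served for names only; its coordinates and sequences were not used here, since the authors' build is TAIR10. Alternatives were other pseudocounts, filters, scalings, limma voom on the rebuilt reads, robust empirical Bayes, a replicate block, FPKM as deposited and left-out libraries.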

Additional observations from a re-analysis of the deposited data

How the results depend on the processing

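All 33 genes were called higher, and 0 lower, in each of the 17 alternative fits, where single log2 changes lay between 0.74 and 3.71 and moved by at most 0.21. The highest adjusted p was 0.0072, for PSAE2 without atino80-6 2. Over all tested genes 3572 rose and 3351 fell; equal library totals gave 3134 and 3943 and moved the median of all genes to -0.04, quantile normalization gave 3306 and 3879, and left-out single libraries gave 2549 to 3867 higher and 2316 to 3545 lower.

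No pairing by replicate number was seen: same-numbered libraries had deviations correlating at 0.027, -0.186 and -0.097, and 0 of 3 correlated best with their own number. The labels do not say whether same-numbered libraries shared a culture or batch. Deviations from means of 3 libraries cannot decide that. With the replicate block 3158 genes rose and 2919 fell, with all 33 genes among the higher, and 0 root genes were called higher.

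Pair differences kept their direction except in the FNR pair, which stood at -0.02 without wild type 3 (range -0.02 to 0.11 over left-out libraries) and at 0.14 without wild type 1 and atino80-6 3 together. The share difference of 0.558 percentage points stayed positive in every alternative run for it.

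Small lists depended on libraries, scaling, the filter and the fit. Plastid members called lower numbered 1 without wild type 1 and atino80-6 3 (0 to 1 over left-out libraries), and YABBY members called lower 0 to 1. Epidermal members called lower were 2 with equal totals, with quantile normalization and without both libraries (1 to 2). Root members called higher were 0 with quantile normalization (0 to 1), and lower were 2 with equal totals, quantile normalization and without both (1 to 2). Seed members called higher were 1 with a mean of at least 50, 1 with robust empirical Bayes and 9 without both (1 to 6). With a mean of at least 50 only 7 seed members were tested, and SESA1 was not among them. The cause of the other changes was not tested. With 3 libraries a group, the exact tests cannot fall below 0.1.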
